A study of Danio rerio and Oryzias latipes with 22 samples.

Results

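Vegf and angiopoietin signalling was described here through 10 genes, the ligands *vegfaa*, *vegfab*, *vegfc*, *vegfd*, *angpt1* and *angpt2a* and the receptors *flt1*, *flt4*, *kdrl* and *tek*. The genes were found by exact symbol and not by a cut on their values, though the set was chosen with earlier results of these data known. All 10 were listed in zebrafish, among 28136 symbols common to the zebrafish gene lists. In medaka 7 of the 10 were listed among 23832 symbols, and *vegfaa*, *vegfd* and *tek* were not analysed there.

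Vegf ligands are secreted growth factors that act on receptor tyrosine kinases of endothelial cells. *vegfaa* and *vegfab* are the zebrafish copies of mammalian Vegfa, whose main signalling receptor in zebrafish vessels is *kdrl*, while *flt1* binds the same ligands and in vertebrates acts largely as a decoy. *vegfc* is a ligand of *flt4*, the receptor best known from lymphatic vessels, and in mammals Vegfd also binds this receptor. *angpt1* activates *tek* (Tie2) and stabilises vessels, and *angpt2a* encodes the related ligand that in mammals is made by endothelial cells during remodelling and can oppose the first. In the injured zebrafish heart, new vessels grow into the wound early, and *vegfaa* is known as one of the cues for this growth.

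The series holds single-cell RNA sequencing of whole ventricles from wild-type Tübingen zebrafish and CAB medaka, given as 6 to 18 months old. Ventricles came from uninjured fish or from fish at 3 or 14 days post injury (dpi), counted from the day a cold probe was held to the apex, and neither a transgene nor a drug treatment was compared (Tricaine was used as an anaesthetic). Zebrafish gave 4 samples without injury, 3 at 3 dpi and 6 at 14 dpi, medaka 4, 3 and 2. How many hearts made up a sample is not given in the sources used here, so p-values measure only the spread between these samples. The hearts had been squeezed to remove blood, and the atrium and the bulbus arteriosus had been cut away.

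Values are counts of unique molecular identifiers (UMIs), each a distinct captured mRNA, and totals per sample ran from 11107238 to 75811359. Barcodes with at least 200 genes and at most 40% of UMIs from symbols that start with mt- were kept. This left 48397 zebrafish and 31680 medaka cells. The median per cell was 974 to 6448 UMIs over the zebrafish samples and 1836 to 5838.5 over the medaka ones. Zebrafish mitochondrial UMIs under other symbols did not count toward this limit. Over all barcodes, mt- symbols held 5.16% to 26.3% of the UMIs of a zebrafish sample, and all mitochondrial symbols 24.8% to 75.6%. In medaka the 2 shares were equal. Any 2 of the 22 samples shared at most 10 barcodes, or 0.364% of the smaller sample. Levels are given as CPM, the UMIs of the gene per 1000000 non-mitochondrial UMIs summed over the cells of a type in a sample, as mean ± SD over samples with at least 10 such cells. Levels of different genes are not compared, since a 3′ count depends on the gene model. One property of the samples touched many zebrafish values. Uninjured zebrafish replicates 1 and 2 had been counted on a shorter gene list with other identifiers than the other 11 zebrafish samples, so each member's change that passed is given with and without them. The matrix headers of these replicates also name an earlier software version. Whether the difference lies in the gene list, the software or the fish cannot be told apart here.

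Cells were named from fixed marker genes, in each species on its own, and each name below stands for cells that are like that type. Neither the 10 genes nor *tie1* was used to form the clusters. Zebrafish had 16928 endothelial, 10510 cardiomyocyte, 9553 erythroid, 3673 epicardial, 3303 leukocyte, 2097 thrombocyte and 313 mural cells, with 2020 unnamed. Medaka had 5987 endothelial, 4454 cardiomyocyte, 752 epicardial, 7048 leukocyte and 1204 thrombocyte cells, 10778 cells of globin-led clusters that no list named, and 1457 other unnamed cells. The cardiomyocyte list summed to between 76940 and 131200 CPM in zebrafish cardiomyocytes and between 64860 and 148200 CPM in medaka cardiomyocytes. As the same list named these cells, the sums do not test their ventricular origin. Erythroid cells in zebrafish and globin-led cells in medaka served as background, since neither should use these genes. Uninjured zebrafish replicates 1 and 2 held 313 and 382 erythroid cells, and replicates 3 and 4 only 2 and 7. The uninjured erythroid CPM therefore comes from replicates 1 and 2, the pair counted on the other gene list.

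In zebrafish the ligand level was highest in cardiomyocytes for *vegfab*, in thrombocytes for *vegfc* and *angpt1*, in mural cells for *vegfd*, in epicardial or mural cells for *vegfaa* and in endothelial cells for *angpt2a*. *vegfab* was a cardiomyocyte gene: cardiomyocytes held 85.6% of its UMIs in uninjured hearts, 76.4% at 3 dpi and 81.4% at 14 dpi. Its level in cardiomyocytes was 123, 151, 122 and 78.1 CPM in the 4 uninjured samples, 124, 150 and 95.5 CPM at 3 dpi, and between 115 and 161 CPM at 14 dpi with a median of 132 CPM. The time points overlapped fully. The next type, endothelial cells, stood at 23.2 ± 7.0 CPM (SD, n = 4) in uninjured hearts, and no sample of it reached any cardiomyocyte sample. Within endothelial cells the coronary-like ones, a sub-cluster of 752 cells led by *cavin1b*, had a median of 0 CPM of *vegfab* and stood below the other endothelial cells in all 13 samples (median 25.3 CPM in those). Erythroid cells held 0.765 CPM in uninjured hearts and 3.93 CPM at 14 dpi.

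*vegfaa* was found in epicardial and mural cells and, in uninjured hearts and at 14 dpi, at a lower mean level in cardiomyocytes. At 3 dpi this order did not hold, as the epicardial mean was 21.6 CPM beside 23.1 CPM in cardiomyocytes, with overlapping samples. The only 3 dpi sample with at least 10 mural cells had 24.8 CPM in them. With each library clustered alone, cardiomyocytes had the highest level at 3 dpi. Epicardial cells, the outer layer of the heart and its derivatives, had 220, 137, 60.0 and 42.2 CPM in the uninjured samples. At 3 dpi they had 24.8, 15.6 and 24.4 CPM, and at 14 dpi between 33.9 and 103 CPM (78.4 ± 25.1, n = 6). All 3 samples at 3 dpi lay below every uninjured and every 14 dpi sample. Mural cells, the contractile coat of vessels, had 95 ± 34.5 CPM at 14 dpi (n = 5), which overlapped the epicardial level. Cardiomyocytes had 23.1 ± 6.52 CPM when uninjured, 23.1 ± 3.08 at 3 dpi and 25.7 ± 5.49 at 14 dpi. Of the *vegfaa* UMIs of all cells, cardiomyocytes held 62.0%, 50.8% and 47.8% at the 3 time points and epicardial cells 33.6%, 37.3% and 42.8%. No *vegfaa* UMI was counted in 2097 thrombocytes, which allows up to 1.67 CPM.

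*vegfd* shared the epicardial and mural cells with *vegfaa*. Its mural level was 147, 36.7 and 124 CPM in the uninjured samples with at least 10 mural cells, 41.3 CPM in the single sample at 3 dpi, and 96, 45.9, 64.2, 79.6 and 82.5 CPM at 14 dpi. These mural sums rest on 1 to 10 UMIs per sample, so their counting error is large. Epicardial cells had 7.40, 4.86, 42.6 and 26.7 CPM when uninjured, 17.8, 4.31 and 8.23 CPM at 3 dpi and a range of 12.6 to 51.4 CPM at 14 dpi. Uninjured replicates 1 and 2 were the lowest of the uninjured samples here, whereas for *vegfaa* they were the highest. Erythroid cells held at most 0.636 CPM of *vegfd* in any sample. Epicardial cells with *cldnc*, *jam2b* and *podxl* had 79.0 CPM of *vegfd* in the only uninjured sample with 10 of them, and 51.4 CPM on average at 14 dpi, while no 3 dpi sample held 10.

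*vegfc* was led by thrombocytes, the nucleated fish counterpart of platelets. Mammalian platelets are known to carry and release Vegfc. Thrombocytes had 365, 361, 468 and 594 CPM of *vegfc* in the uninjured samples, 928, 621 and 611 CPM at 3 dpi and between 395 and 622 CPM at 14 dpi. No sample of another named type overlapped these values, and the next type at 3 dpi, endothelial cells, had 16.6 ± 7.7 CPM. Thrombocytes are few, and of all *vegfc* UMIs they held 23.2%, 37.3% and 61% at the 3 time points, beside 52.9%, 45.5% and 27% in endothelial cells. The thrombocyte values rest on 10 to 20 UMIs of the gene per uninjured sample. After each cell was thinned to 1000 UMIs, the share of thrombocytes with a *vegfc* UMI was 26.6% ± 22.3 (n = 4) in uninjured hearts, 53.4% ± 9.40 at 3 dpi and 35.7% ± 9.88 at 14 dpi, against at most 0.0222% of erythroid cells on average. Only 32 of 162 uninjured thrombocytes, 128 of 373 at 3 dpi and 187 of 1562 at 14 dpi had enough UMIs to be thinned. Without thinning the shares were 33.0%, 45.2% and 30.4%, at a median of 817.5, 804 and 607.5 UMIs per cell, against 0.131% or less of erythroid cells, whose median was 3724, 628 and 647 UMIs. Endothelial cells had 4.67, 7.17, 6.93 and 2.74 CPM when uninjured and 11.9, 12.4 and 25.4 CPM at 3 dpi, so these samples did not overlap. The difference was 1.46 ± 0.57 on the log2 scale (95% interval 0.34 to 2.58), with an edgeR adjusted p of 0.143, and did not pass the threshold of 0.05, nor did it against uninjured replicates 3 and 4 alone (2.06, adjusted p = 0.0547).

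Among the named types, *angpt1* was found mainly in thrombocytes and cardiomyocytes. An unnamed *krt4*-led cluster of 293 cells, part of no named type, had 132 CPM of *angpt1* in a pooled sum, on 462 UMIs. Thrombocytes had 171 ± 181 CPM when uninjured, 179 ± 54.3 at 3 dpi and 136 ± 110 at 14 dpi, so the spread between uninjured samples was as large as their mean. Of all *angpt1* UMIs, cardiomyocytes held 86.9%, 81.8% and 86.4% at the 3 times and thrombocytes 0.649%, 2.81% and 3.52%. Mammalian platelets are also known to hold this ligand. Thrombocyte sums did carry cardiomyocyte RNA, with 817 to 9801 CPM of the cardiomyocyte marker list over all samples, and that list stood at 76940 CPM or more in cardiomyocytes themselves. All 4 uninjured and all 3 samples at 3 dpi had more *angpt1* in thrombocytes than in cardiomyocytes, and 3 of 6 did at 14 dpi. The thrombocyte levels rest on 263 *angpt1* UMIs in 2097 cells of all samples. Uninjured thrombocytes held only 136426 UMIs of all genes in 162 cells, so their counting error is large. Cardiomyocytes had 15.4, 10.9, 149 and 90.9 CPM of *angpt1* when uninjured, 117, 113 and 116 CPM at 3 dpi and 62.8 to 118 CPM at 14 dpi. The pair of uninjured samples counted on the other gene list averaged 13.1 CPM and the other pair 120.0 CPM. Mural cells had 32.9 ± 31.2, 45.5 (1 sample) and 57.1 ± 28 CPM at the 3 times.

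*angpt2a* was mostly endothelial, with 92% of its UMIs in these cells when uninjured, 77.6% at 3 dpi, where unnamed cells held 19.5%, and 97.2% at 14 dpi. Coronary-like cells held 123 *angpt2a* UMIs in uninjured hearts, 154 at 3 dpi and 1170 at 14 dpi, beside 101, 37 and 143 in the endothelial cells that were neither coronary-like nor lymphatic-like. They had 65.8, 98.3, 43.8 and 66.7 CPM when uninjured, 60.7, 219 and 6.53 CPM at 3 dpi, and 44.0, 656, 858, 104, 12.5 and 13.4 CPM at 14 dpi. Replicates 2 and 3 at 14 dpi stood far above the other 4, of which 1 lay just above the uninjured range, 1 inside it and 2 below it. Other endothelial cells had a median of 3.31 CPM over samples, and the coronary-like cells were higher in 12 of 13 samples, by a median of 18.3 times. A second site was the lymphatic-like sub-cluster of 53 cells, which held 267 CPM in a pooled sum. The 14 dpi change in coronary-like cells was 1.79 ± 1.24 on the log2 scale (95% interval -0.63 to 4.22) and did not pass (edgeR adjusted p = 0.592, and 2.10 with an adjusted p of 0.635 against uninjured replicates 3 and 4 alone).

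**Figure D1:**
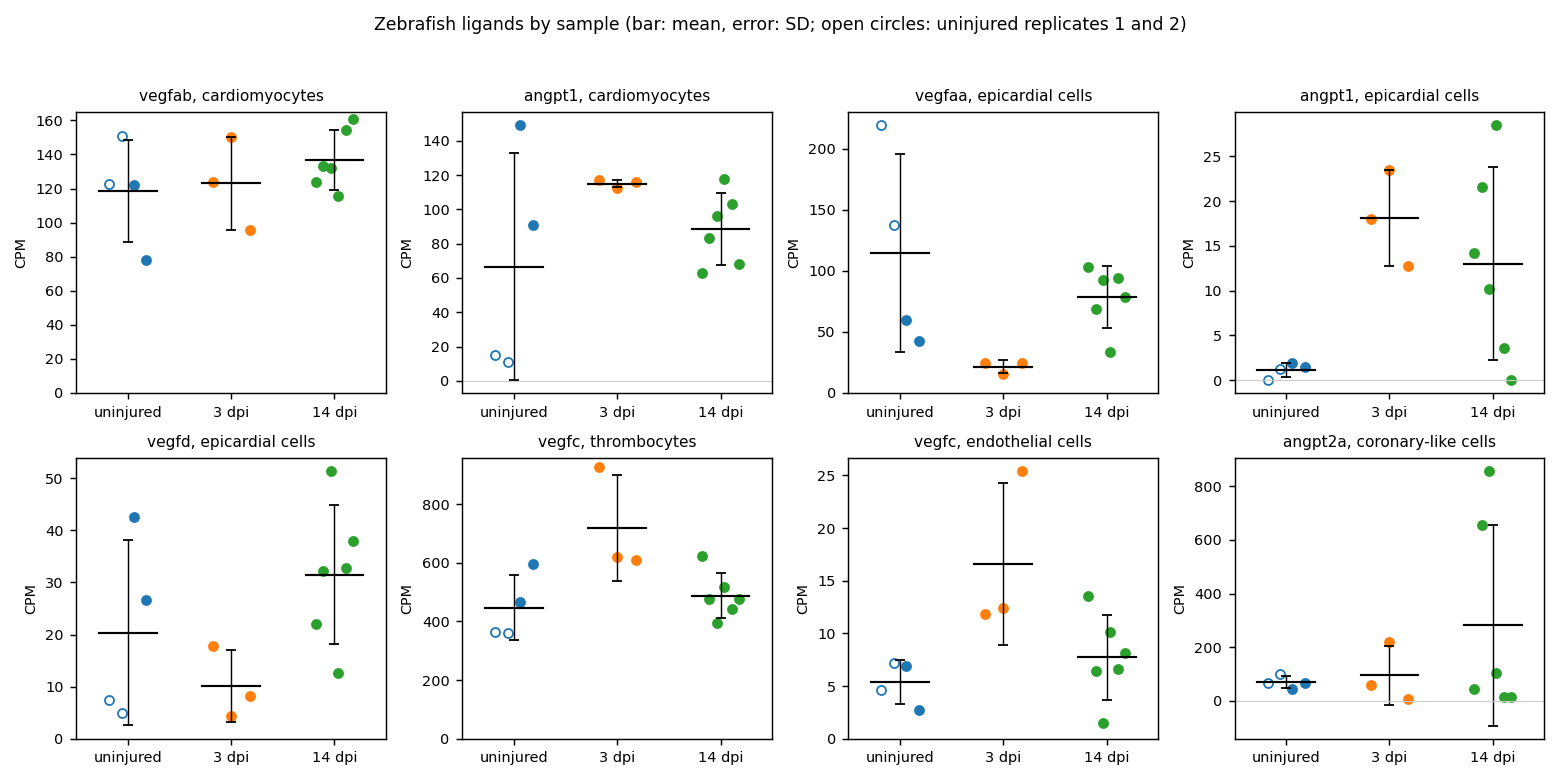
Level of 6 zebrafish ligands in CPM (linear axes) by time point in the cell types that hold them, 1 point per sample with at least 10 cells, bars for the mean and whiskers for the SD. Open circles mark uninjured replicates 1 and 2, which stand low for *angpt1* in cardiomyocytes (15.4 and 10.9 CPM) and high for *vegfaa* in epicardial cells (220 and 137 CPM).

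The receptors were concentrated in endothelial cells. *kdrl* had 96.2%, 88.2% and 92.1% of its UMIs there at the 3 time points, *flt1* 95.9%, 89.2% and 93.7%, and *tek* 93.5%, 83.3% and 86.8%. The *kdrl* level in endothelial cells was 333, 257, 507 and 391 CPM when uninjured, 173, 299 and 161 CPM at 3 dpi and between 237 and 545 CPM at 14 dpi. Replicate 2 at 3 dpi lay inside the uninjured range and the other 2 samples below it. No sample of another named type reached the endothelial samples when uninjured or at 3 dpi, though mural cells of uninjured hearts averaged 80.6 ± 122 CPM on 4 UMIs. At 14 dpi the leukocytes of replicate 6, 21 cells, had 252 CPM of *kdrl* and 126 CPM of *flt1*, inside the endothelial range over samples and below the endothelial cells of the same sample. Erythroid cells, the background, had 4.30 CPM in uninjured hearts (replicates 1 and 2 only) and 24.6 CPM at 14 dpi, with a highest sample of 83.1 CPM.

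*flt1* in endothelial cells stood at 198, 109, 69.1 and 66.1 CPM when uninjured, 68.7, 102 and 73.6 CPM at 3 dpi and 195, 90.9, 97.7, 91.4, 285 and 243 CPM at 14 dpi. The 2 higher uninjured samples were replicates 1 and 2. *tek* showed the same split, with 109 and 88.9 CPM in replicates 1 and 2 and 53.0 and 59.0 CPM in replicates 3 and 4, against 75.1 to 100 CPM at 3 dpi and 61.4 to 99.4 CPM at 14 dpi. *tek* was also found outside the endothelium. Thrombocytes had 51.2 ± 12.8, 49.5 ± 29.4 and 67.3 ± 19.5 CPM at the 3 times, overlapping the endothelial range each time, on 1 to 30 UMIs per sample. In uninjured hearts they had the highest *tek* level without uninjured replicates 1 and 2, and also with at least 500 genes per cell. Macrophages had 24.2, 14.1 and 10.8 CPM on average, and mural cells 5 UMIs of *tek* in all 313 cells.

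*flt4* had few UMIs in zebrafish, 125, 65 and 120 over all cells at the 3 times. Endothelial cells as a whole had 4.19 ± 3.79 CPM when uninjured, 1.11 ± 1.39 at 3 dpi and 2.54 ± 2.93 at 14 dpi, and the lymphatic-like cells (named from *lyve1b*, *prox1a* and *mrc1a*) held 381 CPM in a pooled sum over 53 cells. The other 15 endothelial sub-clusters had at most 2.66 CPM each. At 3 dpi the epicardial level of 1.63 ± 1.03 CPM overlapped the endothelial one, and epicardial cells held 43.1% of the *flt4* UMIs beside 52.3% in endothelial cells. Only replicate 5 at 14 dpi had at least 10 lymphatic-like cells. In that sample the lymphatic-like cells had 343 CPM of *flt4*, 64.0 CPM of its ligand *vegfc*, 186 CPM of *kdrl* and 81.5 CPM of *tek*. Erythroid cells had 0 *flt4* UMIs in 9553 cells, which allows up to 0.154 CPM.

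Coronary-like cells differed from other endothelial cells of the same samples in several members. These are descriptions without a test, since the cells were grouped by their expression. *kdrl* was higher in the coronary-like cells in 10 of 13 samples and in all 6 samples at 14 dpi, where the ratio ran from 1.69 to 2.66. *flt1* was likewise higher in 10 of 13 and in all 6 at 14 dpi. *tek* went the other way in uninjured hearts, where none of 4 samples was higher: coronary-like cells had 29.2, 26.2, 25 and 28.2 CPM, and the lowest other endothelial sample had 55.5 CPM. At 14 dpi they had 143, 65.1, 44.2, 54.3, 102 and 112 CPM, all above the uninjured values, and 3 of 6 samples stood above the other endothelial cells. *vegfaa*, whose level in other endothelial cells was 0.851 ± 0.714 CPM at 14 dpi, had 2.49 ± 3.15 CPM in uninjured and 16.9 ± 9.42 CPM in 14 dpi coronary-like cells, on 2 to 22 UMIs per sample at 14 dpi. None of the 5 members tested in these cells passed at 14 dpi (background 0.225% of 5778 genes higher and 0.865% lower), and with edgeR *tek* gave 1.53 ± 0.48 (adjusted p = 0.163), *vegfaa* 2.55 ± 0.84 (adjusted p = 0.19), *flt1* 1.11 ± 0.39 (adjusted p = 0.218) and *kdrl* 0.70 ± 0.31 (adjusted p = 0.352). Of the 5, 4 had an unadjusted p under 0.05, and DESeq2 also called none. Against uninjured replicates 3 and 4 alone the same 4 changes were 1.58, 2.70, 1.63 and 1.17 (edgeR adjusted p = 0.204, 0.145, 0.102 and 0.129). The 9 mural markers averaged 2494 CPM in uninjured and 2455 CPM in 14 dpi coronary-like sums. All endothelial cells had 280 and 338 CPM of these markers, and mural cells had 11150 CPM at 14 dpi. Their part in the *vegfaa* level of coronary-like cells was not tested.

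**Figure D2:**
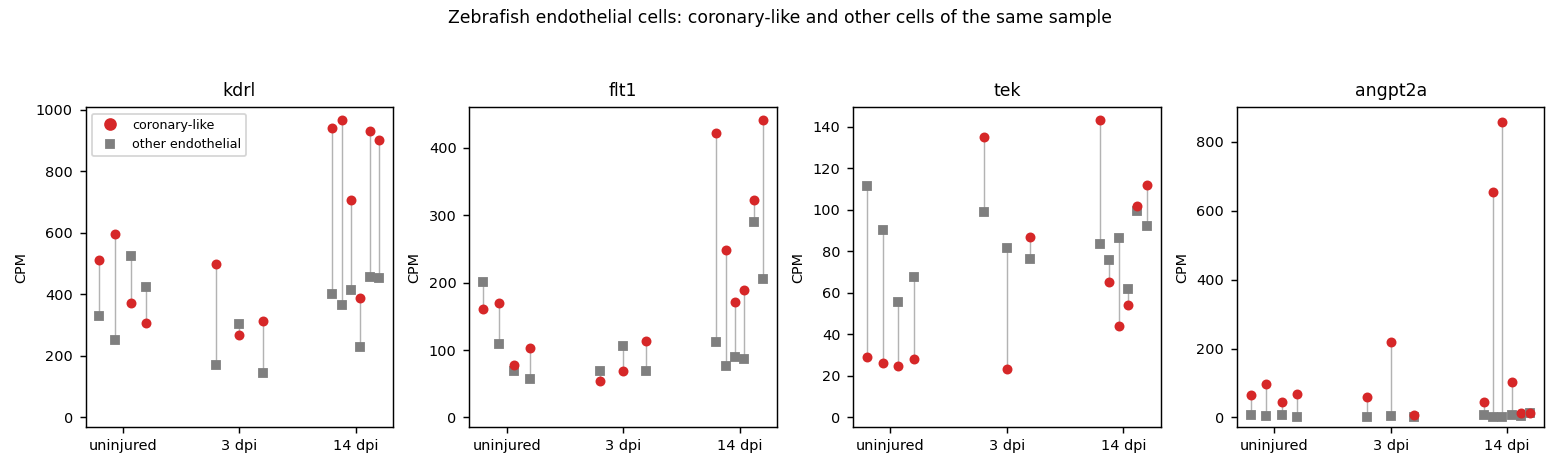
Level of *kdrl*, *flt1*, *tek* and *angpt2a* in CPM (linear axes) in coronary-like cells (red circles) and other endothelial cells (grey squares) of the same zebrafish sample, joined by a line, by time point. At 14 dpi all 6 samples have the circle above the square for *kdrl* and *flt1*, whereas all 4 uninjured samples have it below for *tek*.

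After cryoinjury, the members that changed in zebrafish did so in epicardial cells and, at 14 dpi, in thrombocytes. At 3 dpi 33 tests of members in 6 cell types gave 4 calls (12 at an unadjusted p under 0.05), all in epicardial cells, where 1 rose and 3 fell among the 7 members tested. Of all 11883 genes tested in epicardial cells, 15.6% were called higher and 13.4% lower, so a call there is common. The members' median change was -1.61 on the log2 scale beside -0.01 over all genes. At 14 dpi 35 tests in 7 types gave 2 calls (8 at an unadjusted p under 0.05), 1 in epicardial cells and 1 in thrombocytes. The background at 3 dpi was 2.75% of genes higher and 2.22% lower in coronary-like cells, 4.34% and 1.95% in leukocytes and 0.59% and 0.443% in thrombocytes. At 14 dpi it was 0.456% and 0.936% in cardiomyocytes, 0.16% and 0.465% in leukocytes and 0.526% and 0.876% in mural cells.

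*angpt1* rose in epicardial cells at 3 dpi by 3.64 ± 0.80 on the log2 scale, a factor of 12.4 (edgeR quasi-likelihood test, adjusted p = 0.0045). The uninjured samples held 0, 1.21, 1.94 and 1.44 CPM, on at most 4 UMIs each, and the 3 dpi samples 18.0, 23.5 and 12.7 CPM on 48 to 169 UMIs. The groups did not overlap. The call stood in each of 7 fits that left out 1 sample and in each of 10 other fits, and against uninjured replicates 3 and 4 alone the change was 3.33 (adjusted p = 0.0204). At 14 dpi the samples ranged widely, with 14.2, 21.6, 10.2, 28.5, 3.6 and 0 CPM, and the rise of 3.37 ± 0.76 had an adjusted p of 0.0418, against a background of 0.867% of genes higher and 0.724% lower. That call was lost without any 1 of the 4 uninjured samples or of replicates 1 to 4 at 14 dpi (changes of 2.97 to 3.64, adjusted p up to 0.0934), and without uninjured replicates 1 and 2 together (3.15, adjusted p = 0.0895, background 1.31% higher and 1.68% lower). Cardiomyocyte markers in the epicardial sums ran from 485 to 2025 CPM in uninjured samples and from 92.9 to 294 CPM at 3 dpi. Their part in the *angpt1* result was not tested.

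*vegfaa* fell in epicardial cells at 3 dpi by 2.62 on the log2 scale, with an SE of 0.57, or 6.16 times lower (edgeR adjusted p = 0.00449). All 7 fits that left out a sample and all 10 others kept the call. Its size depended on the uninjured samples, since against replicates 3 and 4 alone it fell by 1.32 (adjusted p = 0.0254). At 14 dpi the change of -0.57 ± 0.44 did not pass (adjusted p = 0.543) and turned to 0.76 ± 0.40 against replicates 3 and 4 alone (adjusted p = 0.285). The share of epicardial cells with a *vegfaa* UMI after thinning was 10.8% ± 6.26 (n = 4) when uninjured, 2.42% ± 0.80 at 3 dpi and 8.07% ± 2.44 at 14 dpi, against 0.0129%, 0.0558% and 0.575% of erythroid cells. Without thinning the shares were 31.3%, 28.2% and 23.6%, at a median of 6507, 27380 and 5597 UMIs per cell, so the 3 dpi cells were the deepest.

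*vegfc* and *tek* also fell in epicardial cells at 3 dpi, on few UMIs and less firmly. *vegfc* had 19.7, 19.4, 2.90 and 3.97 CPM when uninjured and 3.40, 0.974 and 0.796 CPM at 3 dpi, where the highest 3 dpi sample overlapped the lower uninjured pair. It fell by 2.87 with an SE of 0.93 (edgeR adjusted p = 0.0314), but by 1.25 against replicates 3 and 4 alone (adjusted p = 0.335). Leaving out uninjured replicate 1 or 2 or 3 dpi replicate 2 or 3 also ended the call, with falls of 2.40 to 2.56 and adjusted p up to 0.119. *tek* fell by 2.32 with an SE of 0.81 (edgeR adjusted p = 0.0423), on 27 UMIs in the uninjured and 18 in the 3 dpi samples. The *tek* call was kept in 1 of 6 fits that left out a sample, lost without uninjured replicate 1 or 2 or any 3 dpi sample (-2.78 to -1.79, adjusted p up to 0.116), and became -0.50 (adjusted p = 0.741) when each library was clustered alone. Against uninjured replicates 3 and 4 alone it was -1.65 and did not pass (adjusted p = 0.177). The 14 endothelial markers, of which 9 to 14 had a UMI in every sample at these 2 times, went in the same epicardial sums from 271 to 1283 CPM in uninjured samples to 104 to 186 CPM at 3 dpi, and their part in the *tek* result was not tested.

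Epicardial cells of each time point fell mostly in sub-clusters of their own, and samples were not aligned before clustering. Sub-clusters 3, 4 and 8 held 324, 320 and 159 uninjured cells and at most 1 cell each from 3 dpi. Sub-clusters 0 and 1 held 457 and 417 cells, all from 14 dpi. Sub-clusters with more than 50% of their cells from 3 dpi samples, a rule chosen after the values were seen, held 91.0%, 94.2% and 85.3% of the epicardial cells of the 3 samples. In those sub-clusters *vegfaa* had 22.4 ± 6.13 CPM and *angpt1* 17.8 ± 6.21 CPM (n = 3). The other 43 epicardial cells of these samples had 15.9 ± 7.95 CPM of *vegfaa* and 21.7 ± 8.83 CPM of *angpt1*, so both genes stood at similar levels in the 2 sets. *vegfd* did not, with 6.95 ± 5.08 CPM in the first and 47.8 ± 17.5 CPM in the other cells. Its change over all epicardial cells at 3 dpi was -1.22 ± 0.63 (edgeR adjusted p = 0.151) with all uninjured samples, and against replicates 3 and 4 alone it fell by 1.88 with an SE of 0.56 (adjusted p = 0.0191, background 18.2% of genes lower).

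In zebrafish endothelial cells none of the 10 members passed at 3 dpi or 14 dpi (2 and 1 at an unadjusted p under 0.05; background 2.84% higher and 3.2% lower at 3 dpi, 1.01% and 1.36% at 14 dpi). *kdrl* came nearest among the receptors at 3 dpi, with -0.80 ± 0.31 (95% interval -1.41 to -0.19, edgeR adjusted p = 0.143), or -0.75 against uninjured replicates 3 and 4 alone (adjusted p = 0.136), and was called by DESeq2, which gave a fall of 0.83 (adjusted p = 0.0492) and called no other member there. Against uninjured replicates 3 and 4 alone, *tek* rose by 0.86 ± 0.25 at 3 dpi (adjusted p = 0.03) and by 1.01 ± 0.23 at 14 dpi (adjusted p = 0.0188), and *flt1* rose by 1.72 ± 0.51 at 14 dpi (adjusted p = 0.0458). With all 4 uninjured samples these were -0.06, 0.09 and 0.53. The background of that fit was also larger, at 12.3% of genes higher and 11.1% lower at 3 dpi and 7.06% and 6.43% at 14 dpi, and which pair of uninjured samples stands closer to the tissue cannot be told from these data.

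No member passed in cardiomyocytes at either time (1 of 6 at an unadjusted p under 0.05 at 3 dpi, none at 14 dpi, and none with DESeq2). At 3 dpi *vegfab* gave -0.56 ± 0.31 (adjusted p = 0.351), *vegfaa* -0.55 ± 0.24 (adjusted p = 0.23) and *angpt1* 0.39 ± 0.59 (adjusted p = 0.79, and -0.39 against replicates 3 and 4 alone) in the edgeR fit, against a background of 1.08% of genes higher and 1.29% lower. The fit scales libraries by TMM and the CPM by their totals, and in CPM the means did not differ in that direction, at 118 and 123 CPM for *vegfab* and 23.1 CPM at both times for *vegfaa*. Against replicates 3 and 4 alone the 2 changes were -0.03 and -0.54 (adjusted p = 0.95 and 0.172). Receptor UMIs were few in these cells. Against replicates 3 and 4 alone *flt1* rose by 3.68 and *tek* by 3.82 at 3 dpi (adjusted p = 0.0154 and 0.0227, background 6.27% higher and 6.67% lower), and *flt1* by 3.49 at 14 dpi (adjusted p = 0.0218, background 3.99% and 4.17%), where those replicates held 0.453 and 0.224 CPM of *flt1* and 0 and 0.782 CPM of *tek*. The summed 14 endothelial markers in cardiomyocytes, of which at least 12 had a UMI in each of these samples, ran from 94.0 to 363 CPM in uninjured samples and from 359 to 1336 CPM at 3 dpi, and their part was not tested.

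*kdrl* rose in thrombocytes at 14 dpi (edgeR 6.58 ± 1.74, adjusted p = 0.0389, background 3% of genes higher and 1.43% lower). No *kdrl* UMI was seen among 136426 UMIs of 162 thrombocytes in uninjured hearts, which allows up to 22 CPM over the group. The 14 dpi samples had 29.6, 98.0, 177, 59.6, 105 and 54.5 CPM, at least 3.97-fold higher on average. The 14 endothelial markers, 7 or 8 of them with a UMI in an uninjured sample and 11 to 13 at 14 dpi, ran in the same sums from 889 to 3897 CPM in uninjured samples to 2614 to 7798 CPM at 14 dpi. The erythroid background of *kdrl* was also highest at 14 dpi (24.6 CPM), though its uninjured value came from replicates 1 and 2 alone. The part of these markers and of the background in the result was not tested. Of the 7 fits that left out a sample and still tested the gene, 2 kept the call. Without replicate 2, 3 or 5 at 14 dpi the gene fell under the filter on low counts and was not tested. The call was lost without uninjured replicate 1, 3 or 4 or 14 dpi replicate 4 or 6 (6.38 to 6.70, adjusted p up to 0.11) and without uninjured replicates 1 and 2 (6.76, adjusted p = 0.0728, background 5.63% higher and 2.69% lower). *vegfc* in thrombocytes did not pass at 3 dpi, with 0.92 ± 0.31 (adjusted p = 0.136), although the 3 samples at 3 dpi all lay above the 4 uninjured ones, and was 0.69 against uninjured replicates 3 and 4 alone (adjusted p = 0.231).

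**Figure D3:**
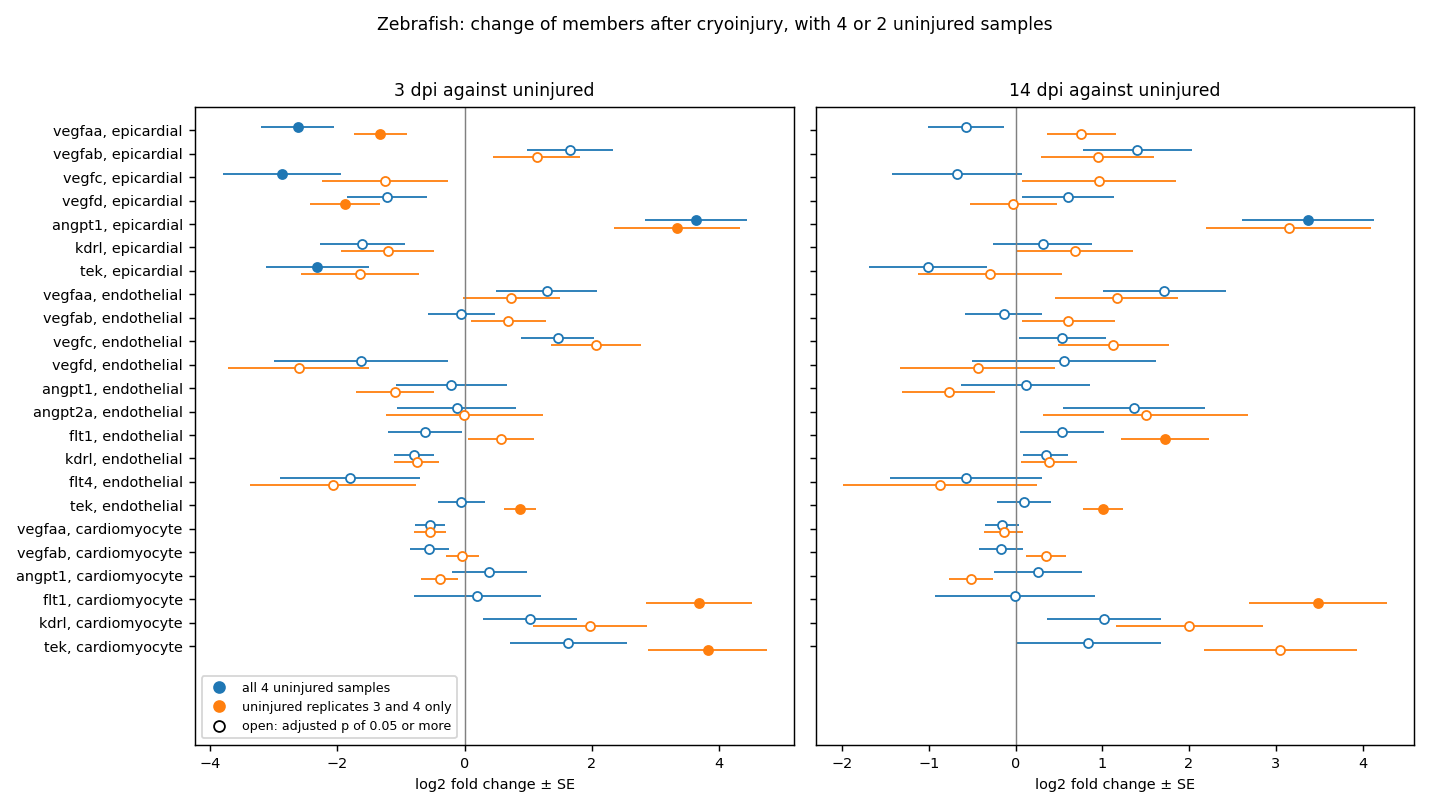
Log2 fold change ± SE of the members in zebrafish epicardial, endothelial and cardiomyocyte cells at 3 dpi (left) and 14 dpi (right) against all 4 uninjured samples (blue) or against uninjured replicates 3 and 4 (orange), filled where the edgeR adjusted p is under 0.05. Epicardial *angpt1* and *vegfaa* at 3 dpi are filled in both colours, at 3.64 and 3.33 and at -2.62 and -1.32, while endothelial *tek* is filled only in orange.

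In medaka *angpt1* and *vegfc* were highest in other cell types than in zebrafish, which was not tested. *angpt1* was a cardiomyocyte gene, with 98.3%, 95.9% and 98.7% of its UMIs in these cells at the 3 times. Cardiomyocytes had 368, 424, 1052 and 790 CPM when uninjured (658 ± 322), 1251, 880 and 748 CPM at 3 dpi from 119, 38 and 60 cells, and 635 and 551 CPM at 14 dpi. The next named type when uninjured was epicardial cells at 17.8 ± 9.34 CPM, while an unnamed *gpnmb*-led cluster of 318 cells had 350 CPM in a pooled sum. Thrombocytes, which had the highest level in zebrafish though few of its UMIs, held 5 *angpt1* UMIs in 1204 medaka cells, or 3.40 CPM. After thinning, 42.3% ± 15.4 of uninjured medaka cardiomyocytes had an *angpt1* UMI, against 0.170% ± 0.174 of globin-led cells, and without thinning 82.8% and 0.457% did, at a median of 17050 and 1248 UMIs.

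*vegfab* was spread over several medaka types whose ranges overlapped. Cardiomyocytes held most of its UMIs in uninjured hearts (66.3%) and leukocytes most at 3 dpi (42.2%). Macrophages had 329, 415, 99.8 and 206 CPM when uninjured, 275, 136 and 144 CPM at 3 dpi and 160 and 189 CPM at 14 dpi, while T lymphocytes of uninjured hearts had 1.79 CPM. Thrombocytes had 206, 42.8, 261 and 248 CPM when uninjured, on 1 to 62 UMIs, and 142 and 762 CPM at 14 dpi. Cardiomyocytes had 66.7, 110, 84.0 and 135 CPM when uninjured, 218, 113 and 139 CPM at 3 dpi and 80.1 and 57.3 CPM at 14 dpi. At 3 dpi 15.3% ± 4.77 of medaka macrophages had a *vegfab* UMI after thinning (52.3% without, at a median of 7054 UMIs) and 2.26% ± 2.06 of zebrafish macrophages (7.5% without, at 5699 UMIs), against 0.0941% of globin-led and 0.0985% of erythroid cells, and this difference between species was not tested.

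*vegfc* in medaka had its highest level in epicardial cells. Epicardial cells had 10.3, 7.30, 17.6 and 16.3 CPM when uninjured, 38.3 CPM in the single 3 dpi sample with at least 10 of these cells, and 44.0 and 10.1 CPM at 14 dpi. Their cells held 87.2% of the *vegfc* UMIs in uninjured hearts and 94.4% at 14 dpi. At 3 dpi they held 26.6% of 154 UMIs, endothelial cells 51.3% and unnamed cells 20.8%. Not one *vegfc* UMI was counted in 1204 medaka thrombocytes, which allows up to 2.04 CPM, and 1 in 4454 cardiomyocytes. *angpt2a* was sparse, with 44, 37 and 28 UMIs in all cells at the 3 times, and thrombocytes led with 41.3 ± 47.2 CPM when uninjured on 15 UMIs.

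The medaka receptors were endothelial, as in zebrafish, with 89.5% of *kdrl*, 80.9% of *flt1* and 90.3% of *flt4* UMIs in endothelial cells when uninjured. Thrombocytes overlapped the endothelial *flt1* level at each time, with 19.1 ± 18.1, 53 ± 24.9 and 30.5 ± 11.5 CPM beside 41.3 ± 12.6, 60.8 ± 7.71 and 37.3 ± 2.09 CPM, and had the highest level at 3 and 14 dpi with at least 500 genes per cell and at 3 dpi with each library clustered alone. Medaka thrombocyte sums also held 1871 to 3315 CPM of the 12 endothelial markers at 3 dpi, beside 3977 to 5254 CPM in endothelial cells. The 9 mural markers stood at 3035 to 5064 CPM in these thrombocyte sums, beside 2808 to 3239 CPM of the thrombocyte list. The part of both lists in the thrombocyte levels of *flt1*, *vegfab* and *angpt2a* was not tested. *flt4* was found across the medaka endothelial cells. Their level was 58.5, 75.8, 123 and 87.0 CPM when uninjured, and all 14 endothelial sub-clusters had some of it, with 139 CPM in a *ccl25b*-led one. *flt1* had 32.7, 54.8, 28.7 and 48.9 CPM when uninjured and 59.2, 69.2 and 54.1 CPM at 3 dpi. In medaka epicardial sums *kdrl* had 147 ± 155 CPM when uninjured, which came from replicates 3 and 4 (303 and 259 CPM). The same sums held 197 to 2572 CPM of the 12 endothelial markers, 9 to 11 with a UMI, and sub-clusters 0 and 8, led by *mb* and *hsp90aa1.2*, carried 340 and 391 CPM of *kdrl*.

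At 3 dpi 16 tests of medaka members in 4 types gave 4 calls (5 at an unadjusted p under 0.05), all in endothelial cells, with 2 of 6 members higher and 2 lower. Of 11855 genes tested there, 14.1% were called higher and 12.7% lower. The members' median change was 0.25 beside -0.07 over all genes. At 14 dpi none of 21 tests passed (4 at an unadjusted p under 0.05, 0 with DESeq2). The background at 3 dpi was 2.5% of genes higher and 1.04% lower in cardiomyocytes, 12.6% and 14% in leukocytes and 16.2% and 12.4% in thrombocytes. At 14 dpi it was 2.45% and 0.337% in endothelial cells, 0.373% and 0.0453% in epicardial cells, 0.23% and 0% in cardiomyocytes, 0.784% and 0.0184% in leukocytes and 7.74% and 1.29% in thrombocytes. Epicardial cells had no test at 3 dpi, as the samples held 8, 4 and 16 of them.

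*vegfab* rose in medaka endothelial cells at 3 dpi by 2.14 ± 0.33 on the log2 scale, a factor of 4.42 (edgeR adjusted p = 0.00212). The uninjured samples had 11.9, 15.2, 8.58 and 22.4 CPM and the 3 dpi samples 59.2, 48.8 and 87.6 CPM, with no overlap. At 14 dpi they had 25.3 and 22 CPM. All 7 fits that left out a sample kept the call. Clustering each library alone ended it, at 0.76 (adjusted p = 0.353), in a fit where 3 dpi replicate 2 had no endothelial cells and the other 2 samples had 165 and 116.

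*vegfc* rose in the same cells by 5.07 ± 1.13 (edgeR adjusted p = 0.0105), from 0, 0, 0.365 and 0.344 CPM on 4 UMIs to 9.74, 14.8 and 0.368 CPM. Replicates 1 and 2 at 3 dpi held 41 and 37 UMIs and replicate 3 a single one, so this change rests on 2 of 3 samples. The call stood in all 5 fits that left out a sample and still tested the gene, and without replicate 1 or replicate 2 at 3 dpi it fell under the filter on low counts. Outside the named types, an unnamed cluster of 176 cells with *mki67* among its leading genes had 9.85 CPM of *vegfc* and 199 CPM of *kdrl*.

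The receptors *kdrl* and *flt4* fell in medaka endothelial cells at 3 dpi. *kdrl* had 496, 567, 595 and 740 CPM when uninjured and 404, 335 and 428 CPM at 3 dpi without overlap, and fell by 0.65 with an SE of 0.19 (edgeR adjusted p = 0.0314). *flt4* had 50.1, 15.6 and 43.4 CPM at 3 dpi and fell by 1.24 with an SE of 0.36 (adjusted p = 0.0303), again without overlap. Both calls were fragile. That of *kdrl* was lost without uninjured replicate 2 or 4 or 3 dpi replicate 1 or 2 (adjusted p up to 0.129), and that of *flt4* without uninjured replicate 2, 3 or 4 or 3 dpi replicate 1 or 2 (adjusted p up to 0.0624). With each library clustered alone they were -0.26 and -0.18 (adjusted p = 0.581 and 0.739).

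Medaka endothelial cells also differed between the time points in other measures. Cells of the other times were set apart too, and samples were not aligned before clustering. Sub-clusters 1 and 2 held 755 and 733 uninjured cells and at most 4 from any later time. Sub-cluster 0 held 892 cells from 14 dpi among 1023. Sub-clusters with more than 50% of their cells from 3 dpi samples, again a rule chosen after the values were seen, held 83.6%, 90.3% and 69.4% of the endothelial cells in the 3 samples. *vegfab* had 51.5 ± 4.71 CPM in these mostly 3 dpi sub-clusters and 108 ± 102 CPM in the other 130 cells of the same samples. *kdrl* had 393 ± 52.6 and 343 ± 64.0 CPM in the 2 sets, both below the uninjured samples. The summed endothelial markers were lower, at 3977 to 5254 CPM beside 5347 to 7557 CPM when uninjured, and the 9 mural markers, 4 to 8 of them with a UMI, were higher, at 2383 to 4611 CPM beside 155 to 1544 CPM. The 6 epicardial markers, 3 to 5 of them with a UMI and *tbx18* at 0 in every 3 dpi sample, were also higher without overlap, at 292 to 652 CPM beside 63.4 to 207 CPM. For all 3 lists their part in the 4 changes was not tested.

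**Figure D4:**
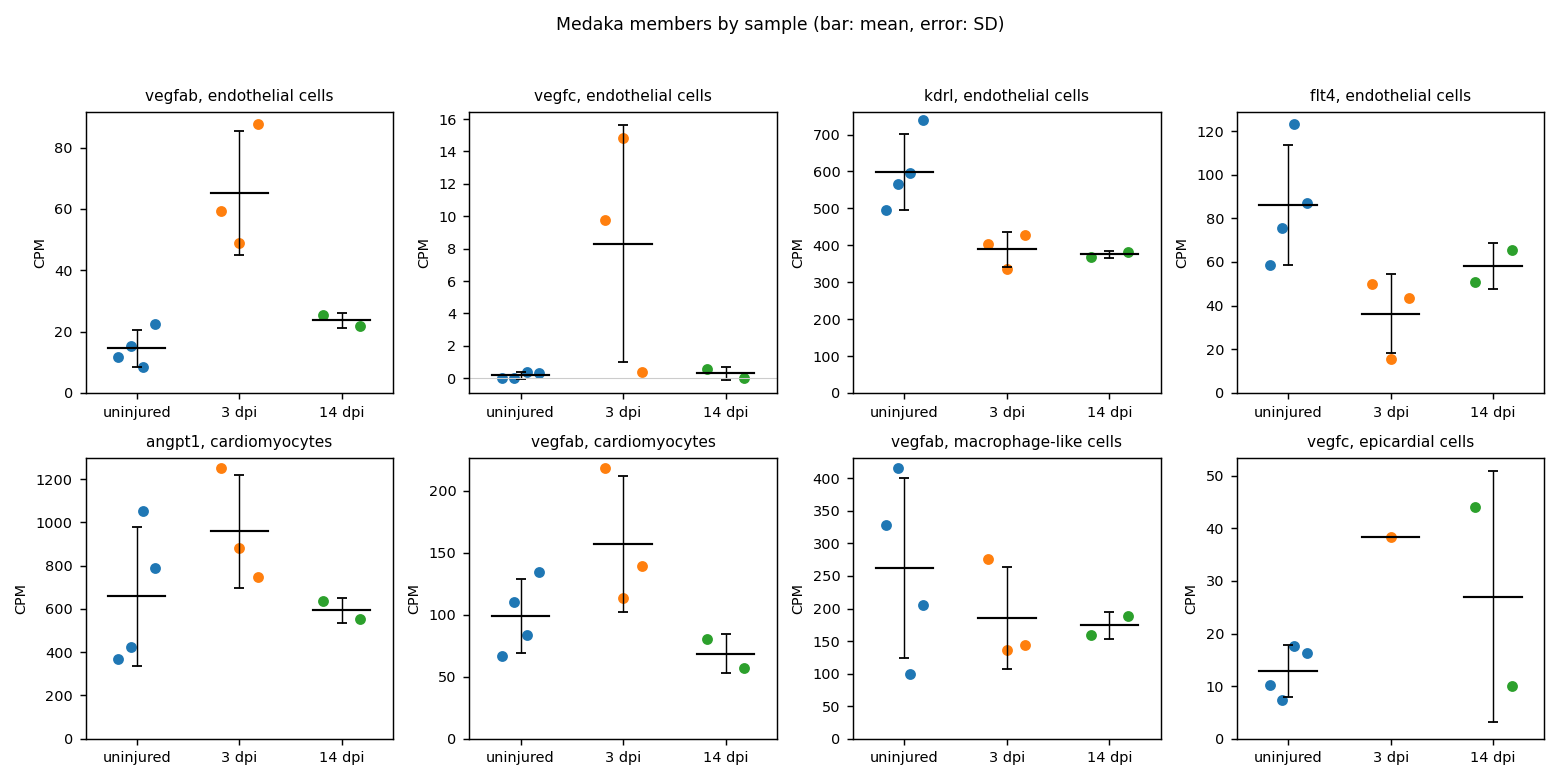
Level of medaka members in CPM (linear axes) by time point, 1 point per sample with at least 10 cells, bars for the mean and whiskers for the SD. In endothelial cells *vegfab* is highest in the 3 samples at 3 dpi (48.8 to 87.6 CPM) and *vegfc* in 2 of them, while *kdrl* and *flt4* are lower than in the uninjured samples.

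Whether the species differed in the response at 3 dpi was tested by the interaction term over symbols listed in both. None of 18 tests of members in 4 types passed (4 at an unadjusted p under 0.05), where 2.17% of genes in endothelial cells had a higher response in medaka and 1.79% a lower one. These shares were 0.241% and 0.175% in cardiomyocytes, 0.53% and 0.909% in leukocytes and 0% and 0.378% in thrombocytes. *vegfab* in endothelial cells gave a medaka minus zebrafish difference of 2.13 ± 0.62 (edgeR adjusted p = 0.0698) and *vegfc* 3.53 ± 1.17 (adjusted p = 0.109). With DESeq2 3 members passed, *vegfab* (2.15, adjusted p = 0.0225) and *vegfc* (3.75, adjusted p = 0.0442) in endothelial cells and *kdrl* in leukocytes (3.15, adjusted p = 0.0324). Leaving out zebrafish uninjured replicate 4 also brought *vegfab* past the threshold (2.35, adjusted p = 0.0382), leaving out medaka 3 dpi replicate 3 brought *vegfc* (4.07, adjusted p = 0.0277), and leaving out zebrafish 3 dpi replicate 2 brought *angpt2a* in endothelial cells (6.22, adjusted p = 0.034). Epicardial cells were not in this test, since medaka had too few of them at 3 dpi.

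Shares of cells with a UMI of a member, thinned to 1000 UMIs, gave no passing test in either species. The exact permutation tests over samples had smallest adjusted p-values of 0.449 in zebrafish (50 tests at 3 dpi and 60 at 14 dpi) and 0.3 in medaka (28 and 35 tests). The adjustment ran over both time points of a species together. The design of 3 against 4 samples allows no p below 0.0286, and that of 2 against 4 in medaka at 14 dpi none below 0.0667. With these limits no medaka test could pass at either time. At 3 dpi in zebrafish none could pass unless tests at 14 dpi also had small p-values. The lack of passing tests in these sets therefore decides nothing.

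The list of 30 other pathway genes (further ligands and receptors, ligand processing, endothelial response and hypoxia genes) was also tested in each type. In zebrafish epicardial cells at 3 dpi 24 of them were tested, of which 1 rose and 7 fell, with a median of -0.53 beside -0.01 over all genes. Of all genes tested there, 15.6% were called higher and 13.4% lower. *svep1*, an extracellular protein that binds angiopoietins and acts in lymphatic growth, rose by 2.05 ± 0.56. Those that fell were the ligands *pgfb* (-5.06) and *angpt4* (-1.94), *ccbe1* (-2.80), which helps to activate Vegfc, the Notch ligand *dll4* (-2.73), the apelin receptor *aplnra* (-3.51), the hypoxia factor *epas1a* (-4.48) and *vhl* (-1.51), which marks such factors for breakdown. The 14 endothelial markers in these epicardial sums ran from 271 to 1283 CPM in uninjured samples and from 104 to 186 CPM at 3 dpi. Their part in these falls was not tested. Against uninjured replicates 3 and 4 alone *svep1* (2.77), *pgfb*, *aplnra* and *epas1a* still passed, while *angpt4* (-1.49), *ccbe1* (-2.22), *dll4* (-1.45) and *vhl* (-0.71) did not (edgeR adjusted p of 0.0652 to 0.191). Elsewhere in zebrafish *kdr*, the second zebrafish Vegf receptor 2, rose in coronary-like cells at 14 dpi (1.37 ± 0.31, edgeR adjusted p = 0.0401, 1 of 18 tested, background 0.225% of genes higher). It also rose in cardiomyocytes at 3 and 14 dpi (2.51 and 2.21, edgeR adjusted p = 0.0173 and 0.0238, 1 of 20 tested each, background 1.08% and 0.456% higher). *apln*, the ligand of the apelin receptors, rose in endothelial cells at 14 dpi (2.12 ± 0.50, edgeR adjusted p = 0.045, 1 of 22 tested, background 1.01% higher). In leukocytes at 3 dpi *nrp1a* fell by 1.66 (1 of 10 tested, background 1.95% lower). Against uninjured replicates 3 and 4 alone *kdr* in cardiomyocytes still passed (2.53 and 2.26) and *nrp1a* was -2.12, while *kdr* in coronary-like cells (1.01, edgeR adjusted p = 0.143) and *apln* (2.10, adjusted p = 0.0704) did not. The 14 endothelial markers in the cardiomyocyte sums, 11 to 14 of them with a UMI, ran from 94.0 to 363 CPM in uninjured samples, 359 to 1336 CPM at 3 dpi and 241 to 1254 CPM at 14 dpi, and their part in the *kdr* result was not tested.

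In medaka endothelial cells at 3 dpi 15 of the 30 were tested, with 3 higher and 4 lower and a median of -0.37 beside -0.07 over all genes. Of all genes tested there, 14.1% were called higher and 12.7% lower. *pdgfba*, a ligand that draws mural cells to vessels, rose by 5.67 ± 0.64, the transcription factor *hlx1* by 5.24 ± 0.44 and the oxygen sensor *egln3* by 2.02 ± 0.42. *dll4*, *epas1b*, the co-receptor *nrp2a* and the signalling enzyme *plcg1* fell by 1.09, 1.23, 1.85 and 0.77. *egln3* also rose in medaka cardiomyocytes (3.24 ± 0.52, 1 of 12 tested, background 2.5% higher) and leukocytes (3.68 ± 0.93) at 3 dpi. In thrombocytes at 3 dpi *pdgfba*, *tie1* and *vhl* fell among 5 tested, where 16.2% of all genes were called higher and 12.4% lower. The other types and times had at most 1 call in each direction, other than 3 falls in medaka leukocytes at 3 dpi (*adamts3*, *epas1b* and *plcg1*). In those leukocytes 14 genes of the list were tested, and 12.6% of all genes were called higher and 14% lower.

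The genes most like a member were ranked over 21 zebrafish groups of cell type and time point, among 16135 genes, by Pearson's r of log2(mean CPM + 1), as a description. These groups share libraries, and a gene of 1 leading cell type matches any other gene of that type. *kdrl* was nearest to *arhgap29a* (0.95) and *tek* to *gata2a* (0.95), while *flt1* was nearest to *slc7a9* (0.92) and then *sox7* (0.91). *angpt2a* was nearest to *rca2.2* (0.97), *vegfd* to *obscna* (0.98), *angpt1* to *palld* (0.95), *vegfc* to *cdkn2c* (0.95), *vegfab* to *si:ch211-85n16.3* (0.92) and *vegfaa* to *si:ch211-286o17.1* (0.91). *flt4* reached 5 CPM in none of the groups and was not ranked.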

How the data were processed

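The deposited matrices hold raw UMI counts, made by the authors with Cell Ranger for every gene and barcode, and the labels name GRCz11 for the zebrafish reads. Barcodes with at least 200 genes and at most 40% of UMIs from mt- symbols were kept. Each species was clustered alone in scanpy 1.11.5 (Python 3.11.15) on 2000 variable genes, 30 principal components and 20 neighbours, by Leiden (leidenalg 0.10.2) at a resolution of 1.5, and 1.0 within a type. A cluster took the name of the marker list that stood highest in it, with at least 3 markers detected, or 2 within a type. A margin of 0.25 between lists and the unnamed keratin-led set were settled after the clusters had been seen. Scrublet marked 0.298% of zebrafish and 0.0694% of medaka cells, so doublets were not effectively called. Another 12 sub-clusters of 1667 cells carried at least 2 markers of another list among their 10 leading genes.

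UMI counts were summed per sample and type for samples with at least 10 cells and tested in edgeR 4.0.16 (R 4.3.3; quasi-likelihood, robust, TMM, low-count filter), all 3 time points in 1 fit, with Benjamini-Hochberg adjustment over all genes of the type and a two-sided threshold of 0.05. Shares of cells were tested by exact permutation, two-sided. Where a count is 0, the limit is 3 UMIs and covers counting error only, and 95% intervals of a change are the estimate ± 1.96 SE. The fit was tested on simulated data. Alternatives were DESeq2 1.42.0, no filter, fits without other time points, a replicate block, leaving out samples, 500 genes, 15% mt- UMIs outside cardiomyocytes, no doublets and each library clustered alone. Named genes were the members, the pathway genes past the threshold and, of the 3 nearest genes by pattern, mainly the first. The members and lists were chosen with earlier results of these data known. Sequences of the members were not used here.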

Additional observations from a re-analysis of the deposited data

Results flagged for a closer look

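Endothelial *flt4* in uninjured zebrafish replicate 4 stood apart from the other 3 samples, at 9.86 CPM beside 2.04 to 2.60 CPM. It was 1 of 26 groups of 4 to 10 samples looked at in this way, and chance flags about 1 in 20 groups.

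The response at 3 dpi differed between the species for 3 pathway genes, by the interaction term of the edgeR fit with all 4 uninjured zebrafish samples. Of the pathway list, 18 genes were tested in endothelial cells, 16 in cardiomyocytes, 12 in leukocytes and 4 in thrombocytes. Over all genes, 2.17% had a higher response in medaka and 1.79% a lower one in endothelial cells. In cardiomyocytes the shares were 0.241% and 0.175%. In endothelial cells the medaka minus zebrafish difference of the log2 fold change was 4.98 ± 1.22 for *hlx1* (adjusted p = 0.0388) and 5.50 ± 1.1 for *pdgfba* (adjusted p = 0.0179), and in cardiomyocytes it was -3.85 ± 0.72 for *nrp2a* (adjusted p = 0.0351). No member of the Vegf and angiopoietin set was among them.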

How the results depend on the processing

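The cell type with the highest level of a gene at a time point was named in 51 cases, and it was the same in 51 with a limit of 15% mt- UMIs, in 51 without the Scrublet doublets, in 51 without the mixed sub-clusters (an alternative chosen after seeing the data), in 50 without uninjured zebrafish replicates 1 and 2, and in 45 each with at least 500 genes or with each library clustered alone. No call reversed its sign in any alternative. Among zebrafish members at 3 dpi 4 calls became 2 without the low-count filter, and 2 to 4 when a sample was left out. At 14 dpi 2 calls became 1 with at most 15% mt- UMIs, 0 without the 3 dpi samples, 0 with each library clustered alone, and 0 to 1 when a sample was left out. Among medaka members at 3 dpi 4 calls became 1 with at least 500 genes, 0 with each library clustered alone, where fewer 3 dpi cells were named endothelial, and 1 to 4 when a sample was left out, and at 14 dpi 0 calls became 0 to 1. The interaction gave 3 calls with DESeq2 and 0 to 1 when a sample was left out. For the other settings the cause was not tested. Cells named fell from 65822 to 39410 with at least 500 genes, as fewer cells were kept.

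A replicate block gave 1 call in zebrafish at 14 dpi and 1 in medaka at each time. Replicate numbers did not pair the samples: over 34 same-number pairs the deviations correlated from -0.33 to 0.30, with 5 over 0.1. Depth limits medaka epicardial cells at 3 dpi, thrombocytes and mural cells most, where a member often rests on fewer than 10 UMIs per sample.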
